A study of Mus musculus with 64 samples.

Results

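Malat1, Neat1, Meg3, Rian and Miat are long noncoding RNAs that stay largely in the nucleus. Their rows were taken by gene symbol from the expression tables of a mouse stress study, and they are 5 of the 17199 genes that the 4 tables list between them. The tables of prefrontal cortex, hippocampus and hypothalamus list all 5 RNAs, while the blood table lists Malat1 and Neat1 and lacks Meg3, Rian and Miat. Male BALB/c mice aged 28 weeks had been exposed over 9 weeks to mild stressors at unpredictable times, a procedure abbreviated UCMS and used to model depression, or had stayed unstressed as controls. Each brain region was sequenced in 8 UCMS and 8 control animals, and whole blood in 9 UCMS and 7 control animals, giving 64 libraries of 17 animals. No transgene, deletion or drug is named in the labels. Collection of tissue followed the final stress by 14 to 16 hours. Each library came from 1 animal, and the 3 brain regions and the blood of an animal are not independent of each other.

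Malat1 is one of the most abundant nuclear RNAs and gathers in nuclear speckles, the bodies that store splicing factors. Neat1 is the scaffold of paraspeckles, bodies that hold RNA-binding proteins and edited RNAs and that change in number under cell stress. Meg3 and Rian are transcribed from the maternal chromosome in the imprinted Dlk1-Dio3 region, where Rian carries many small nucleolar RNAs and microRNAs and the Meg3 promoter is a stretch methylated on the paternal copy. Miat, also called Gomafu, is a neuronal RNA that forms its own nuclear domain and binds splicing factors through a short repeated sequence. The levels given here are log2 values that had been quantile normalised within a tissue's table, so a level says where a gene stands among the genes of its library. Whether they are scaled to gene length was not established, and no RNA is ranked against another.

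In the GENCODE M21 annotation of GRCm38, Malat1 (Entrez 72289) lies on chromosome 19 from 5795690 to 5802672 on the minus strand as 1 exon block of 6983 bases. Neat1 (Entrez 66961) lies 22.0 kb upstream of Malat1, from 5824708 to 5845478 on the same strand, as 1 block of 20771 bases. Meg3 (Entrez 17263) spans chromosome 12 from 109541001 to 109571726 on the plus strand in 8 exon blocks. Rian (Entrez 75745) follows 32.2 kb downstream, from 109603940 to 109661716, in 19 exon blocks. Miat (Entrez 330166) lies on chromosome 5 from 112213228 to 112229395 on the minus strand in 6 exon blocks.

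The start regions of Meg3, of its neighbour Rian and of Miat are shown, since the relations of Meg3 with the other two are described at length, each with 250 bases before and 50 after the annotated start. RefSeq (GRCm38.p6) gives a promoter for 4 of the 5 RNAs. Capitals mark the cAMP response element TGACGTCA and the TATA motif TATAAA, searched on both strands.
Meg3 (chr12:109540746-109541045, plus strand): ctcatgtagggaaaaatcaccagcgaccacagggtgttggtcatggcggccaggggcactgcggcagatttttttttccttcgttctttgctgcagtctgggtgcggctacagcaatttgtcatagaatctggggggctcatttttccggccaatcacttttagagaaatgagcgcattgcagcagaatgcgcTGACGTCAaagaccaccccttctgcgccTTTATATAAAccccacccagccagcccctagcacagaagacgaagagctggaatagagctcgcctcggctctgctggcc
Rian (chr12:109603695-109603994, plus strand): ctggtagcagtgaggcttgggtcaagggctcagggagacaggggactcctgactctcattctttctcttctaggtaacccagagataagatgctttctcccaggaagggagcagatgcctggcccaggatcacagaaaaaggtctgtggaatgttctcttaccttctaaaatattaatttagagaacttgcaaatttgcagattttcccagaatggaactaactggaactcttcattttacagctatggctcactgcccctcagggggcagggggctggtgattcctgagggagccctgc
Miat (chr5:112228899-112229198, minus strand): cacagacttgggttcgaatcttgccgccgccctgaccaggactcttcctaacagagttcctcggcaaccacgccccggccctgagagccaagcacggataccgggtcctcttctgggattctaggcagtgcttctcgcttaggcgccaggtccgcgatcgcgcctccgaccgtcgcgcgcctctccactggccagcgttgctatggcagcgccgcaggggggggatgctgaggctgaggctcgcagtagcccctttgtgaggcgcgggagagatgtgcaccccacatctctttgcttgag
The Meg3 window shown held 1 TGACGTCA, which begins 57 bases before the start, and 2 matches to TATAAA on opposite strands that overlap each other. The Rian and Miat windows held neither motif, and neither did the Malat1 window (chr19:5802623-5802922, minus strand). Of 32851 promoters of this length, 1.79% held TGACGTCA and 13.6% held TATAAA. The windows shown also differed in CG dinucleotides, with 13 in Meg3, 0 in Rian and 25 in Miat against a median of 7 over all promoters. RefSeq also lists another Meg3 start, whose window (chr12:109545148-109545447, plus strand) held neither motif and 1 CG. A match to letters is a description of the sequence and not a bound site.

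The repeat through which Miat is known to bind splicing factors, TACTAAC in DNA letters, was counted in the longest GENCODE transcript of each RNA on its own strand. Miat held 6 copies in 9163 bases, Neat1 1 copy in 20771 bases, and Malat1, Meg3 and Rian 0. Among 4986 long noncoding RNAs of at least 1000 bases, 6.12% held any copy and 1.60% held as many per kb as Miat. Of the 6 copies, 3 lie within the 200 bases shown, positions 4873 to 5072 of the Miat transcript, with the copies in capitals.
Miat: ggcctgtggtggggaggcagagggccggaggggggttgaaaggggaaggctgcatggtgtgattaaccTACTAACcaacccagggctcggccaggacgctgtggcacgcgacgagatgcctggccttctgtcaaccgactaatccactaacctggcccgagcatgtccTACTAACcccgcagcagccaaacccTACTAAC

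Of the brain libraries, 1 of prefrontal cortex and 1 of hippocampus stood far from the rest of their tables, and 9 more were rich in hemoglobin RNA. UCMS replicate 5 of prefrontal cortex was the lowest or the highest of the 16 libraries at 52.7% of the tested genes, and UCMS replicate 3 of hippocampus at 59.2%, against medians of 8.89% and 8.07% for the libraries of those tables. In 9 brain libraries of 4 animals the beta-globin mRNA Hbb-bs stood at 14.03 to 14.57, against 4.02 to 9.63 in the other 39. Of the 7 hypothalamic peptide genes fixed as markers, 7 were listed in hypothalamus and 2 each in prefrontal cortex and hippocampus. Of the 6 neuronal markers, all were listed in each brain region and 2 in blood. Depth is unknown, because the values hold no counts.

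Malat1 stood near the top of every table, at rank 3 to 8 of the brain libraries and 9 to 16 in blood. In prefrontal cortex its lowest, median and highest levels were 13.65, 15.61 and 16.52 in UCMS mice and 13.65, 15.61 and 16.16 in control mice. In hippocampus they were 13.88, 15.61 and 16.20 in UCMS mice and the same 3 values in control mice. In hypothalamus they were 14.22, 15.47 and 15.47 in UCMS mice and 14.03, 15.47 and 16.34 in control mice. The groups overlapped in each region. In blood the levels were 12.10, 12.73 and 13.17 in UCMS mice and 12.10, 12.97 and 13.83 in control mice. The UCMS libraries lay toward the lower side in blood, where 1 of 9 was above the control median, but all of them fell inside the control range.

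**Figure D1:**
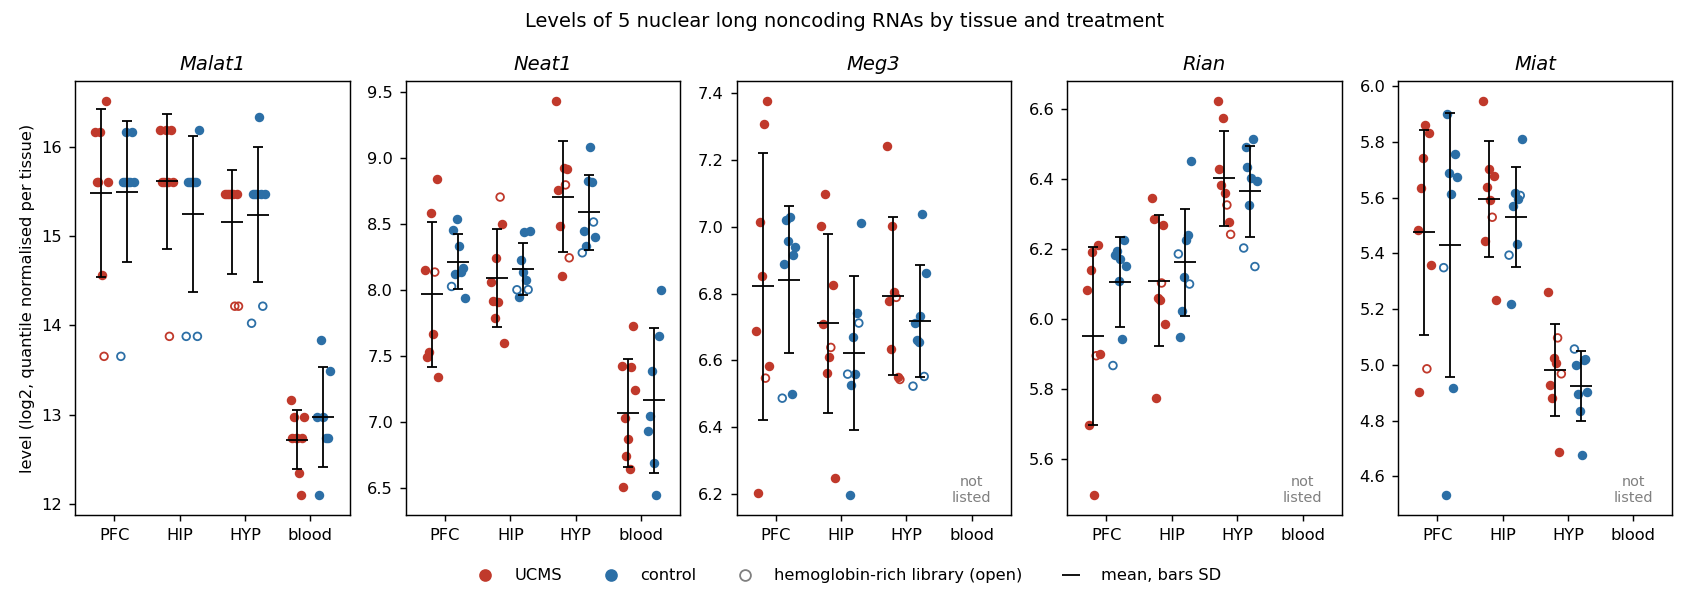
Level of each RNA (log2, quantile normalised per tissue) in prefrontal cortex (PFC), hippocampus (HIP), hypothalamus (HYP) and blood, 1 point per library, UCMS left of control, with the mean and SD. The 2 treatments overlap in every panel, the open points of hemoglobin-rich libraries are the lowest Malat1 values of the brain, and Meg3, Rian and Miat are not listed in blood.

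Quantile normalisation gives every library the same set of values, so a gene this high takes a value from a few steps fixed by its rank. Malat1 took 5 different values in 16 libraries of prefrontal cortex, 3 in hippocampus and 4 in hypothalamus. It had rank 3 in 1, rank 4 in 9, rank 5 in 28 and rank 6 in 1 of the 39 brain libraries without high hemoglobin RNA. The rows above it there were the signal recognition particle RNA copies Rn7s1 and Rn7s2 and, in most libraries, the 7SK RNA Rn7sk and the unnamed locus LOC101056014. In the 9 hemoglobin-rich libraries Malat1 had rank 7 in 3 and rank 8 in 6, with 2 or 3 globin rows above it. With the globin rows left out of the ranking, it had rank 5 in all 9, inside the span of the other 39.

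**Figure D2:**
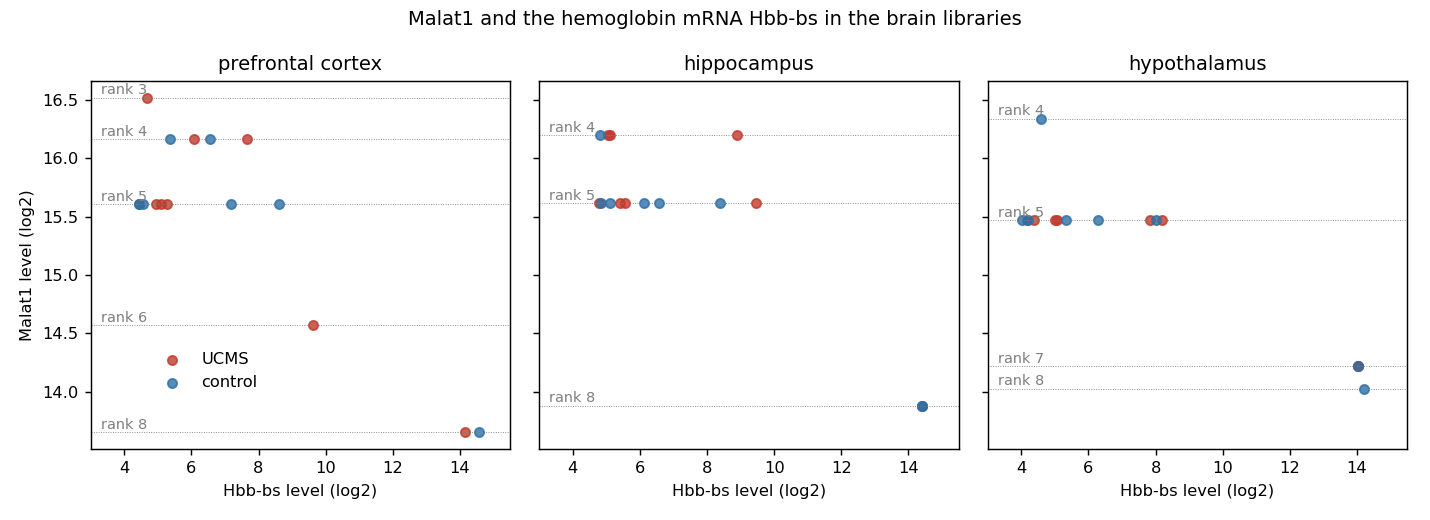
Malat1 level against the level of the beta-globin mRNA Hbb-bs (both log2) in the 16 libraries of each brain region, UCMS and control, with the rank of Malat1 in its library marked as dotted lines. The 9 libraries with Hbb-bs above 12 have Malat1 at 13.65 to 14.22, and the other 39 have it at 14.57 to 16.52.

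The question of the stress comparison was whether UCMS moved these RNAs in a tissue. No Malat1 difference passed the test in any tissue. In prefrontal cortex UCMS minus control was -0.02 ± 0.40, and in the hippocampus it was 0.36 ± 0.37 (log2, SE from limma), or 0.17 without control replicate 1 or 7 and 0.61 without UCMS replicate 6. The hypothalamus gave -0.08 ± 0.31 and blood -0.25 ± 0.19. With the globin rows removed and the quantiles set again, the hippocampal difference was 0.13, that of prefrontal cortex 0.01 and that of hypothalamus -0.10. The sign in prefrontal cortex therefore turned with that step. Beside the blood value, the mean level of the platelet markers, all 5 listed, was 7.45 in UCMS mice (6.53 to 7.98) and 7.91 in control mice (7.66 to 8.10). Malat1 and those markers had an r of 0.12 in blood (adjusted p = 0.841, permutation), and of -0.59 without the 2 farthest libraries (adjusted p = 0.359, permutation). The red-cell markers, 4 of 5 listed, averaged 15.21 in UCMS mice (15.14 to 15.36) and 15.12 in control mice (14.88 to 15.21). Malat1 had an r of -0.68 and a rho of -0.61 with them (adjusted p = 0.0856 and 0.121, permutation), and an r of -0.18 without the 2 farthest libraries; their part in the difference was not tested. In bulk tissue, fewer cells of a type and less RNA per cell cannot be told apart.

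Neat1 had no difference past the test in any tissue. Its lowest, median and highest levels in prefrontal cortex were 7.35, 7.90 and 8.84 in UCMS mice and 7.94, 8.15 and 8.54 in control mice. The UCMS libraries thus reached both below and above all controls, with 2 of 8 above the control median, and the difference was -0.25 ± 0.19. In hippocampus the levels were 7.60, 7.99 and 8.71 in UCMS mice and 7.95, 8.11 and 8.45 in control mice, a difference of -0.07 ± 0.14. In hypothalamus they were 8.11, 8.78 and 9.43 in UCMS mice and 8.28, 8.48 and 9.08 in control mice, a difference of 0.12 ± 0.17. Blood gave 6.51, 7.03 and 7.73 in UCMS mice and 6.45, 7.05 and 8.003 in control mice, a difference of -0.10 ± 0.22. The 95% confidence interval in prefrontal cortex ran from -0.65 to 0.16, which covers UCMS levels from 0.64 to 1.12 times the control level.

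Meg3 stood in prefrontal cortex at a lowest, median and highest level of 6.20, 6.77 and 7.38 in UCMS mice and 6.49, 6.93 and 7.03 in control mice. Its difference there was -0.02 ± 0.15. In hippocampus the levels were 6.25, 6.67 and 7.10 in UCMS mice and 6.20, 6.61 and 7.01 in control mice, a difference of 0.09 ± 0.12. Hypothalamus gave 6.54, 6.78 and 7.24 in UCMS mice and 6.52, 6.69 and 7.04 in control mice, a difference of 0.08 ± 0.10. The ranges of the groups overlapped in each region and no difference passed.

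Rian, which lies downstream of Meg3, gave the smallest unadjusted p of these comparisons and did not pass. In prefrontal cortex its lowest, median and highest levels were 5.50, 5.99 and 6.21 in UCMS mice and 5.87, 6.16 and 6.23 in control mice, with 2 of 8 UCMS libraries above the control median. The difference was -0.15 ± 0.10 (limma adjusted p = 0.987, unadjusted p = 0.136), and -0.09 without UCMS replicate 5, the library that stood apart. In hippocampus the levels were 5.77, 6.08 and 6.35 in UCMS mice and 5.95, 6.15 and 6.45 in control mice, a difference of -0.05 ± 0.08. In hypothalamus they were 6.24, 6.37 and 6.62 in UCMS mice and 6.15, 6.40 and 6.51 in control mice, a difference of 0.04 ± 0.07.

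Miat had lowest, median and highest levels in prefrontal cortex of 4.90, 5.56 and 5.86 in UCMS mice and 4.53, 5.64 and 5.90 in control mice, a difference of 0.05 ± 0.20. The lowest value belonged to control replicate 2, the lowest library of its table at 19.3% of the tested genes. In hippocampus the levels were 5.23, 5.62 and 5.95 in UCMS mice and 5.22, 5.58 and 5.81 in control mice, a difference of 0.07 ± 0.09. In hypothalamus they were 4.69, 4.99 and 5.26 in UCMS mice and 4.68, 4.95 and 5.06 in control mice, a difference of 0.06 ± 0.07.

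Over the 4 tissues and the mean of the 3 brain regions per animal, 22 member differences were tested, and 0 passed limma's adjusted threshold. The adjusted p ranged from 0.598 to 1, 0 had an unadjusted limma p under 0.05, and the exact permutation p ranged from 0.148 to 1. Of all genes, 0% passed the adjusted threshold in each of these comparisons, and the share with an unadjusted p under 0.05 was 2.18% for prefrontal cortex, 2.95% for hippocampus, 2.12% for hypothalamus, 10.8% for blood and 3.62% for the brain mean. The brain means differed by 0.09 ± 0.32 for Malat1, -0.07 ± 0.13 for Neat1, 0.05 ± 0.08 for Meg3, -0.06 ± 0.05 for Rian and 0.06 ± 0.08 for Miat. The intervals were narrowest for Rian in the brain mean, from -0.16 to 0.05, and widest for Malat1 in prefrontal cortex, from -0.85 to 0.82. Of the 22 differences 11 lay above 0 and 11 below. Of all genes, 52%, 50.1% and 50.5% lay above 0 in prefrontal cortex, hippocampus and hypothalamus, 48.5% in blood and 51% in the brain mean.

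**Figure D3:**
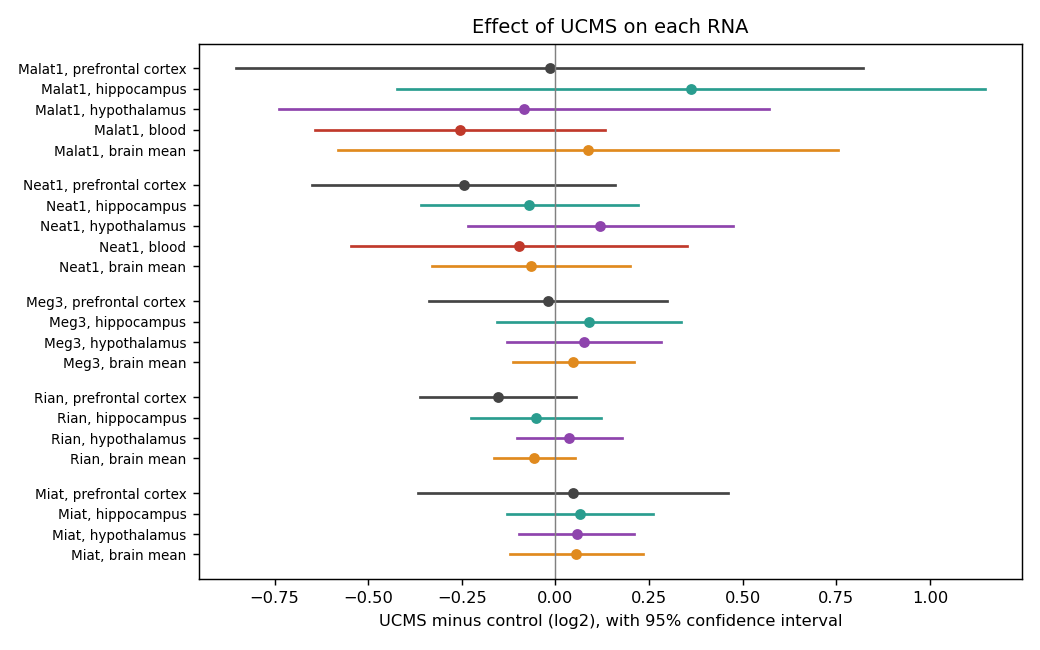
UCMS minus control (log2) for each RNA in each tissue that lists it and in the mean of the 3 brain regions, with its 95% confidence interval from limma. All 22 intervals include 0, and those of Malat1 in the brain are the widest.

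Whether the stress effect differed between tissues was tested on differences within an animal, for 6 pairs of tissues and 21 member tests. None passed, and both lowest p belonged to Malat1. For blood minus hippocampus the UCMS effect differed by -0.67 ± 0.38 (limma adjusted p = 0.576). For hypothalamus minus hippocampus it differed by -0.45 ± 0.22 (exact permutation p = 0.109). Without the animals of hemoglobin-rich libraries these values were -0.39 and -0.34. Between hypothalamus and prefrontal cortex Neat1 was 0.74 higher in hypothalamus in UCMS mice and 0.37 higher in control mice. The Rian difference between the same regions was 0.45 in UCMS mice and 0.26 in control mice. Across the 13747 genes of that pair of regions, 0% passed and 2.43% had an unadjusted p under 0.05, and that second share was 1.61% for hippocampus minus prefrontal cortex and 2.26% for hypothalamus minus hippocampus. For blood minus prefrontal cortex, hippocampus and hypothalamus it was 8.7%, 9.9% and 7.53%, and 0.014% passed after adjustment in the last of these, none of them a member.

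The tissue tables were normalised separately, so the order of a gene's levels between tissues is a description with no test. Neat1 was higher in hypothalamus than in prefrontal cortex in 14 of 16 animals (median 0.56) and than in hippocampus in 14 of 16 (median 0.58), while hippocampus and prefrontal cortex split 8 to 8. Rian was likewise higher in hypothalamus than in prefrontal cortex in 15 of 16 animals (median 0.32) and than in hippocampus in 15 of 16 (median 0.24). Miat ran the other way. It was lower in hypothalamus than in hippocampus in all 16 animals (median -0.63) and than in prefrontal cortex in 12 of 16 (median -0.73), and hippocampus and prefrontal cortex again split 8 to 8. Meg3 had no clear order, with hypothalamus above prefrontal cortex in 6 of 16 animals and above hippocampus in 10 of 16. Malat1 and Neat1 had lower levels in blood than in hippocampus in all 15 animals with both tissues, by a median of -2.71 and -1.04. For Neat1 the lower level was not a lower rank. Over both treatments its rank from the top was 162 to 434 in blood and 312 to 717 in hippocampus. Those tables hold 8830 and 15573 genes and different sets of values. The Neat1 value therefore does not show a lower standing in blood.

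The 5 RNAs also differed in how much they varied between animals of 1 treatment. Neat1 had a within-treatment SD of 0.41 for prefrontal cortex, 0.30 for hippocampus and 0.36 for hypothalamus. That SD was larger than those of 92.3%, 88.9% and 93.1% of the genes within 0.5 of its level. Meg3 had an SD of 0.32, 0.25 and 0.21 in the same regions, larger than 88.1%, 86.0% and 77.3% of genes at its level. Miat varied in prefrontal cortex, with an SD of 0.42, and less in hippocampus (0.19) and hypothalamus (0.15), where 48.7% of like genes had a smaller SD. Rian was the steadiest, with an SD of 0.20, 0.17 and 0.13, larger than 58.8%, 64.1% and 45.8% of genes at its level. For Malat1 the SD was 0.87, 0.82 and 0.67 in all libraries, and 0.49, 0.28 and 0.25 without the hemoglobin-rich ones.

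The levels of some of these RNAs ran together from animal to animal. Levels were centred on the treatment mean, and 31 relations between 2 RNAs in a tissue were tested by permutation within treatment, with p adjusted over the 31. Meg3 and Miat had a Pearson r of 0.68 in prefrontal cortex (adjusted p = 0.0246, permutation), 0.82 in hippocampus (adjusted p = 0.00775) and 0.50 in hypothalamus (adjusted p = 0.260). Spearman's rho was 0.74, 0.63 and 0.30 (permutation p = 0.00260, 0.0146 and 0.286, adjusted p = 0.0377, 0.1004 and 0.390). In hypothalamus r was 0.82 in the 12 libraries that were not hemoglobin-rich (adjusted p = 0.0252, permutation). Without the 2 libraries farthest along the Meg3 axis r was 0.59, 0.67 and 0.16, and none of these passed after adjustment, so the relation rests in part on its end points. As high an r with Meg3 was held by 174 other genes (1.23%) in prefrontal cortex and 7 in hippocampus, and as high an r with Miat by 1092 (7.73%) and 7.

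Meg3 and Rian, neighbours on chromosome 12, ran together most closely in hypothalamus, where r was 0.85 and rho 0.81 (adjusted p = 0.000930 and 0.0186, permutation) and r was 0.79 without the 2 farthest libraries (adjusted p = 0.0304, permutation). Of 14536 other genes tested there, 4 had as high an r with Meg3 as Rian, and 0 had as high an r with Rian as Meg3. In prefrontal cortex and hippocampus r was 0.35 and 0.40 and did not pass (adjusted p = 0.403 and 0.339, permutation). In each of those regions 1 library lay off the line: without UCMS replicate 5 r was 0.91 in prefrontal cortex, and without UCMS replicate 3 it was 0.87 in hippocampus (adjusted p = 0.000465 and 0.00155, permutation). These are the same 2 libraries that stood apart across all genes. In UCMS replicate 5 of prefrontal cortex Meg3 was at 7.31, the second highest of 16, and Rian at 5.50, the lowest. In UCMS replicate 3 of hippocampus Meg3 was at 7.10, the highest, and Rian at 5.77, the lowest. Both libraries were picked out after the values were seen.

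**Figure D4:**
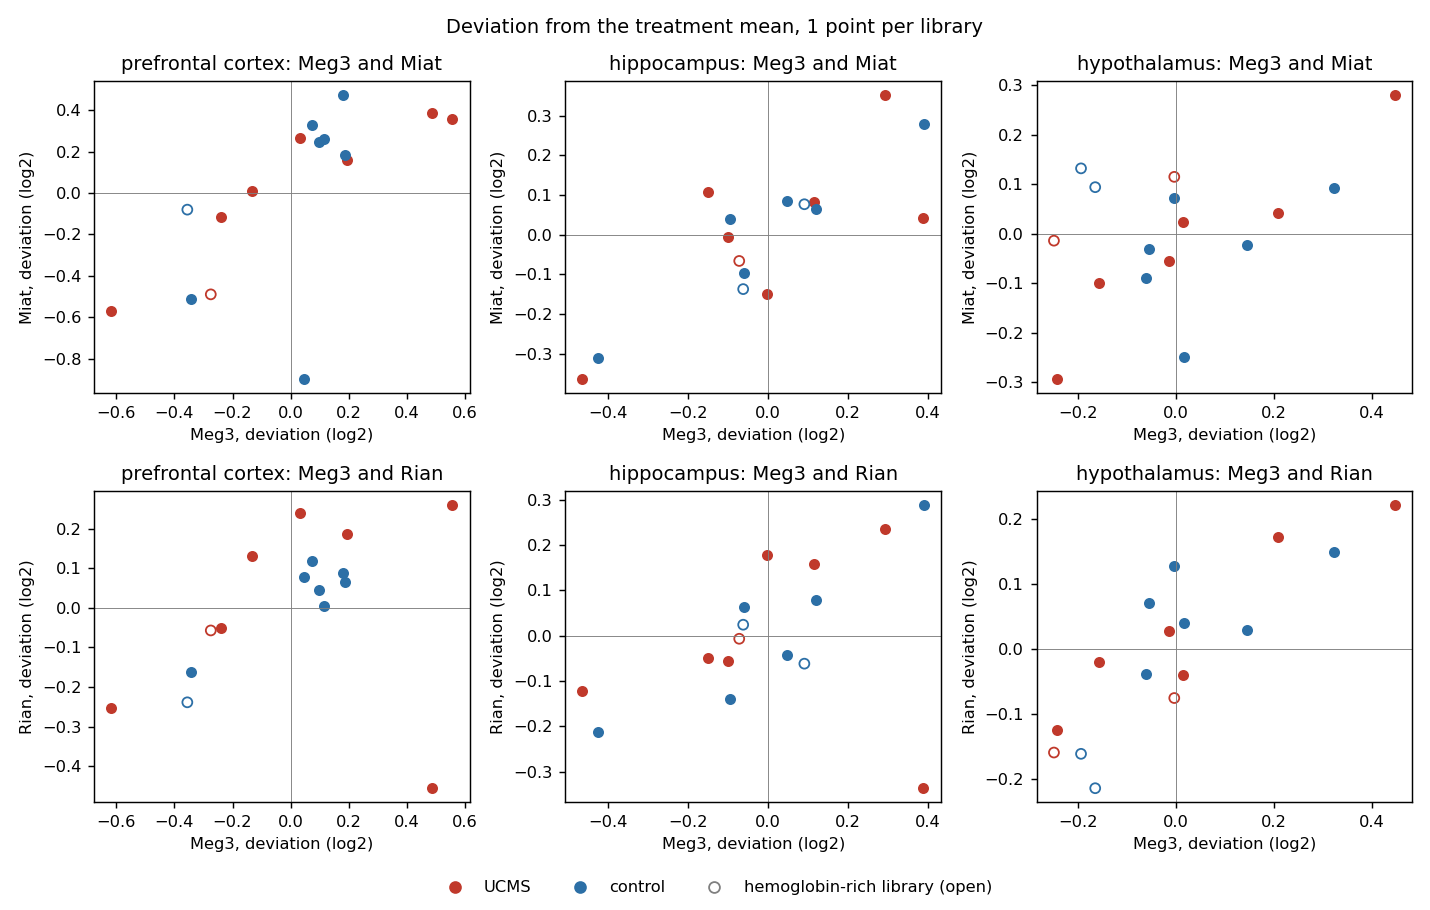
Deviation of Miat (top row) and Rian (bottom row) from the treatment mean against that of Meg3 (log2) in each brain region, 1 point per library, UCMS and control, hemoglobin-rich libraries open. The points rise together, with 1 UCMS library at the lower right of the Meg3 and Rian panels of prefrontal cortex and of hippocampus.

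For Malat1 the brain libraries form 2 separate clusters by hemoglobin RNA, so its relations were read in the other libraries only. There Malat1 and Rian had an r of 0.79 in prefrontal cortex (n = 14, adjusted p = 0.0345, permutation), 0.61 in hippocampus (n = 13) and -0.08 in hypothalamus (n = 12). Malat1 and Neat1, which lie side by side on chromosome 19, had an r of 0.66, 0.75 and 0.39, of which the hippocampal value passed (adjusted p = 0.0252, permutation). Each such r rests on a few rank steps. In hypothalamus Malat1 was at 15.47 in 11 of the 12 libraries and at 16.34 in control replicate 5, so 1 library sets every r of Malat1 there. In prefrontal cortex UCMS replicate 5 held both the lowest Malat1 step of these libraries, 14.57, and the lowest Rian level, and without it the r of Malat1 and Rian was 0.54 (n = 13), a step chosen after seeing the data. Among all genes, 3.54% had as high an r with Malat1 as Rian there, and 2.53% as high an r with Rian as Malat1. In blood Malat1 and Neat1 had an r of 0.31 and a rho of 0.37 (n = 16, adjusted p = 0.406 and 0.276, permutation). In hypothalamus without the hemoglobin-rich libraries Rian and Miat had an r of 0.82 (adjusted p = 0.0252, permutation), against 0.26 in all 16 libraries.

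Around Meg3, 14 rows of the Dlk1-Dio3 region, from Dlk1 to Mirg, were taken for prefrontal cortex, 12 for hippocampus and 13 for hypothalamus. Dio3, Begain and Wdr25 are also listed in each brain region but are not among these rows. For the rows taken, 36 relations with Meg3 were tested in a family added after the data were seen. Of the rows taken other than Meg3, 8 of 13, 6 of 11 and 7 of 12 had an adjusted p under 0.05, all with a positive r. Over all tested genes of these regions, the 95th percentile of r with Meg3 was 0.53, 0.51 and 0.46. The share of all genes that would pass the same test was not measured. By rho 7, 3 and 6 passed, and by r without the 2 libraries farthest along the Meg3 axis 5, 0 and 4 passed, where the lowest adjusted p in hippocampus was 0.0770 (permutation). Without the hemoglobin-rich libraries 6, 4 and 5 passed. Mir1906-1 and Mir770, microRNA genes inside Meg3, had an r of 0.83 and 0.91 in prefrontal cortex, 0.79 and 0.77 in hippocampus and 0.97 and 0.89 in hypothalamus. Mirg, the microRNA-bearing transcript 194.0 kb from the start of Meg3, had an r of 0.82, 0.48 and 0.77, of which those of prefrontal cortex and hypothalamus passed. The noncoding row 6430411K18Rik between Meg3 and Rian had an r of 0.86 and 0.76 in prefrontal cortex and hippocampus and 0.19 in hypothalamus. Dlk1, a paternally expressed gene on the other side of Meg3, had an r of -0.18, 0.26 and -0.03. The small nucleolar RNA AF357359 inside Rian had an r of -0.32, -0.21 and 0.36 with Meg3. It stood at 3.24 in UCMS replicate 5 of prefrontal cortex, against 5.52 to 6.18 in the other 15 libraries. In UCMS replicate 3 of hippocampus it stood at 3.297, against 5.25 to 6.20. Such a drop was not particular to this region. Bc1, which is not among its rows, was also lowest in both libraries. Its levels were 8.62 against 10.93 to 12.75 in prefrontal cortex and 8.21 against 11.55 to 13.04 in hippocampus.

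Mature sequences are given for the microRNA genes that lie in Meg3 and Rian and have a row here. The seed (bases 2 to 8) is in capitals, and the sequences are as RefSeq lists them for GRCm38.p6. They are not the full set for Rian, since its span holds 15 other annotated genes, of which 6 have a row in prefrontal cortex. The rows hold reads over the gene and do not measure the mature RNA.
miR-1906 (Mir1906-1, in Meg3): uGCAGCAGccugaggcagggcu
miR-770-5p (Mir770, in Meg3): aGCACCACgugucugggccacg
miR-770-3p (Mir770, in Meg3): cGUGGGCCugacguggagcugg
miR-341-5p (Mir341, in Rian): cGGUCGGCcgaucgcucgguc
miR-341-3p (Mir341, in Rian): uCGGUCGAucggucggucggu
miR-1188-5p (Mir1188, in Rian): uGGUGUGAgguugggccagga
miR-1188-3p (Mir1188, in Rian): uCCGAGGCuccccaccacacccugc
All 5 microRNA genes among the rows from Dlk1 to Mirg had an entry, with 8 mature arms, and no 2 of the 8 share a seed. Mir341 had an r with Meg3 of 0.58, 0.64 and 0.58 in prefrontal cortex, hippocampus and hypothalamus, and Mir1188 of 0.71, 0.58 and 0.28. The span of Meg3 also overlaps the row of Rtl1, a paternally expressed gene read from the opposite strand, which had an r of 0.85, 0.80 and 0.61. The libraries keep strand, but whether the counting used it is not given in the sources used here, so reads of Meg3, Rtl1 and the microRNA genes inside them cannot be told apart. The same holds for Rian and the small RNA genes in its introns and exons.

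**Figure D5:**
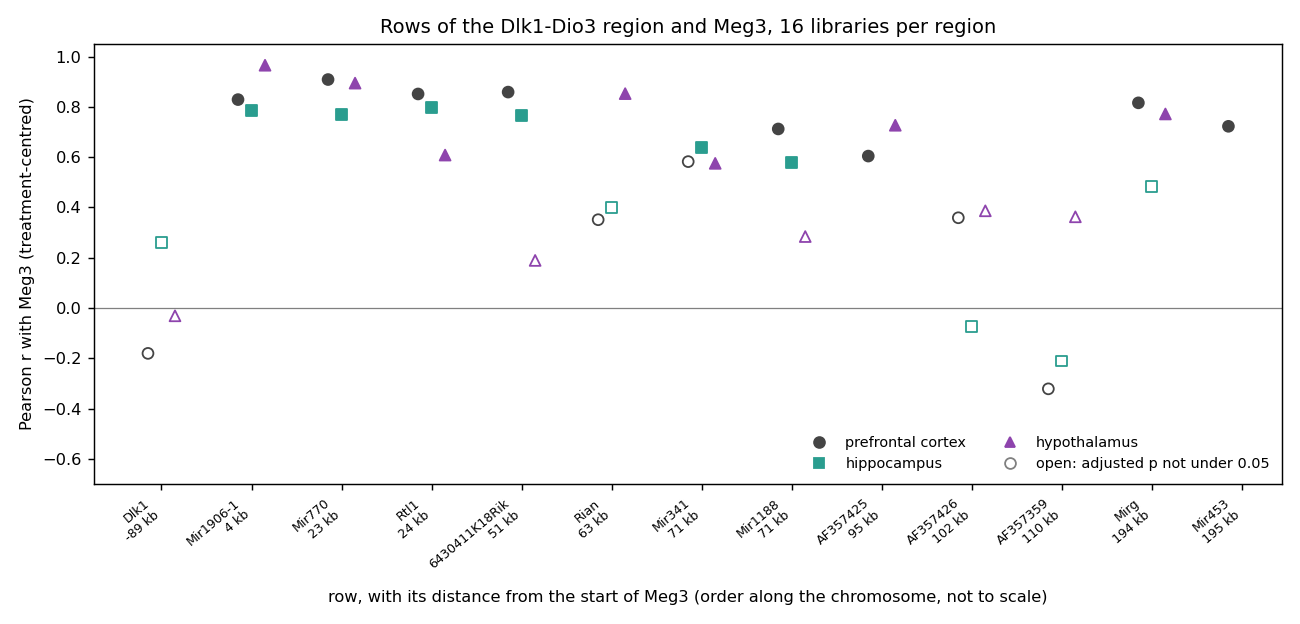
Pearson r with Meg3 of each row taken from Dlk1 to Mirg in the Dlk1-Dio3 region, in order of distance from the start of Meg3, for prefrontal cortex, hippocampus and hypothalamus (16 libraries each, levels centred on the treatment mean), filled where the adjusted p was under 0.05. Most rows inside and downstream of Meg3 are above 0.5, and Dlk1 lies between -0.18 and 0.26.

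None of these neighbours passed the stress comparison. Counted together with Meg3 and Rian, 2 of the 11 tested rows lay above 0 in prefrontal cortex and 9 below (median -0.11). In hippocampus 3 of 9 lay above (median -0.05), and in hypothalamus 9 of 10 (median 0.08). The shares of all genes above 0 were 52%, 50.1% and 50.5%. Of the 6 genes fixed as a list for the region (Dlk1, Rtl1, Mirg, Dio3, Begain and Wdr25), 1 of 4 tested lay above 0 in prefrontal cortex, 0 of 6 in hippocampus and 3 of 5 in hypothalamus, and the blood table lists none. Since the rows vary together and partly share reads, they are not separate pieces of evidence. The row with the smallest p was 6430411K18Rik in hypothalamus, at 5.99 ± 0.24 in UCMS mice and 5.79 ± 0.09 in control mice (SD, n = 8 each, limma unadjusted p = 0.0375, adjusted p = 1).

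The levels were also set beside the mean level of marker genes for cell types, in 100 relations added after the data were seen, of which those described here are a selection. Miat went with the 6 neuronal markers in prefrontal cortex (r = 0.82, rho = 0.71, adjusted p = 0.0210 and 0.0713, permutation). Without the 2 farthest libraries r was 0.65 there and did not pass (adjusted p = 0.251, permutation). Those markers ranged from 7.69 to 7.99 in UCMS mice and from 7.38 to 7.93 in control mice. Control replicate 2 held the lowest marker level, with 7.67 the next lowest, and also the lowest Miat level, 4.53. That library was the lowest or the highest of its table at 31.2% of the tested genes. In hippocampus and hypothalamus the same r was 0.21 and 0.36 and did not pass. Neat1 went with the endothelial markers in hypothalamus (r = 0.68, rho = 0.74, adjusted p = 0.0210 and 0.0713, permutation). Without the 2 farthest libraries that r was 0.79 (adjusted p = 0.134, permutation). In prefrontal cortex and hippocampus the r of Neat1 with these markers was -0.11 and 0.25 and did not pass. In hippocampus Rian went with the endothelial markers (r = 0.68, rho = 0.69) and against the microglial markers (r = -0.71, rho = -0.66). The adjusted p was 0.0499995 for both r and 0.0741 and 0.0894 for rho (permutation). Without the 2 farthest libraries these r were 0.71 and -0.50 (adjusted p = 0.134 and 0.422, permutation). The lowest Rian level there was in UCMS replicate 3, the library that stood apart. In prefrontal cortex and hypothalamus Rian had an r of 0.26 and 0.22 with the endothelial markers. With the microglial markers it was -0.28 and -0.36, and none passed. Microglial markers in hippocampus ranged from 5.70 to 6.01 in UCMS mice and from 5.60 to 5.84 in control mice. Without the hemoglobin-rich libraries, or by rho, no marker relation passed after adjustment (lowest adjusted p = 0.113 and 0.0713, permutation), and in those fewer libraries r was 0.82 for Miat and the neuronal markers in prefrontal cortex. Whether the share of a cell type sets any of these levels was not tested.

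Between tissues of an animal, no RNA's level passed in 21 relations. The highest were Malat1 in hippocampus and hypothalamus (r = 0.80, adjusted p = 0.104, permutation), which was -0.12 without the hemoglobin-rich libraries, and Neat1 in hippocampus and prefrontal cortex (r = 0.61, adjusted p = 0.235, permutation). Meg3, Rian and Miat had an r between -0.35 and 0.52 for every pair of brain regions.

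For each RNA the 3 genes most like it were taken by the mean of r over the 3 brain regions, 16 libraries each, among 13517 genes, as a description. Meg3 was followed by Leng8 (mean r 0.88) and by Mir1906-1 and Mir770 (0.86 each), which share its span. Rian was followed by Wsb1, a substrate receptor of a ubiquitin ligase (0.85), by BC005561 (0.83) and by a row without a symbol (0.83). Neat1 was followed by 5031410I06Rik (0.81), B230206H07Rik and Gm19500 (0.76 each), and Miat by the splicing regulator Sfswap (0.74), the centrosomal linker gene Lrrc45 (0.73) and Mir124a-1hg, host of the neuronal microRNA miR-124 (0.72). The genes most like Malat1 were Rn7sk (0.88), Pgam1-ps2 (0.88) and 2900097C17Rik (0.86), and without the hemoglobin-rich libraries they were Gm19445 (0.77), Fermt2 (0.70) and Smek2 (0.70). Leng8 stayed first for Meg3 in those libraries (0.90) and 5031410I06Rik for Neat1 (0.80).

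The proteins and neighbours that these RNAs are known to work with did not pass the stress comparison either. Of 18 paraspeckle proteins, which bind Neat1, 7 lay above 0 and 11 below in prefrontal cortex, 6 and 12 in hippocampus, and 10 and 8 in hypothalamus. In blood 9 of 15 lay above 0, where 48.5% of all genes did, and 0 passed after adjustment in any tissue. Rbm3, a cold-induced RNA-binding protein, was at 4.595 ± 0.10 in UCMS mice and 4.70 ± 0.05 in control mice in hypothalamus, and Rbm14, needed to build paraspeckles, at 5.44 ± 0.10 in UCMS mice and 5.33 ± 0.08 in control mice (SD, n = 8 each, limma adjusted p = 1 for both). Of 22 nuclear speckle proteins, which share their body with Malat1, the counts above 0 were 7 for prefrontal cortex, 9 for hippocampus and 12 for hypothalamus, and 11 of 21 for blood. The kinase Clk4, which phosphorylates splicing factors, was at 3.74 ± 0.22 in UCMS mice and 4.01 ± 0.10 in control mice in prefrontal cortex (SD, n = 8 each, limma adjusted p = 0.987), and the speckle scaffold Srrm2 at 6.25 ± 0.10 in UCMS mice and 6.11 ± 0.09 in control mice in hypothalamus (adjusted p = 1). For the 4 genes of known Miat partners (Qk, Sf1, Celf3 and Srsf1), 2 lay above 0 and 2 below in each brain region, and 2 of 3 above in blood.

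Of 24 other nuclear or imprinted long noncoding RNAs, 19, 19, 20 and 10 were tested in prefrontal cortex, hippocampus, hypothalamus and blood, and 0 passed after adjustment. In prefrontal cortex 6 lay above 0 and 13 below (median -0.10), against a median of 0.01 over all genes. Rmst, a neurogenic RNA that binds SOX2 in human cells, was at 4.04 ± 0.24 in UCMS mice and 4.30 ± 0.13 in control mice there, and Gas5, a host of small nucleolar RNAs, at 4.67 ± 0.16 in UCMS mice and 4.89 ± 0.21 in control mice (SD, n = 8 each, limma adjusted p = 0.987 for both). In blood 3 lay above 0 and 7 below (median -0.14, against -0.01 over all genes). Above 0 there, Pvt1 was at 5.001 ± 0.36 in 9 UCMS mice and 4.31 ± 0.81 in 7 control mice (limma adjusted p = 0.446), and Dleu2 at 4.87 ± 0.49 in UCMS mice and 4.14 ± 1.03 in control mice (adjusted p = 0.458). Of the 8 genes listed as chromosome 19 neighbours of Malat1 and Neat1, 6 of 7 tested lay above 0 in prefrontal cortex, 7 of 8 in hippocampus and 3 of 8 in hypothalamus, and of the 4 in blood 1 did. Dpf2, a chromatin remodelling subunit among them, was at 3.53 ± 0.31 in 9 UCMS mice and 3.93 ± 0.55 in 7 control mice in blood (SD, limma adjusted p = 0.477).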

How the data were processed

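Per the labels' protocols, ribosomal RNA was removed from 100 ng of total RNA and directional libraries were made; GRCm38.p4 is the only build in the submitters' processing notes. Aligner, counter, annotation and use of strand: not given in the sources used here. Each tissue has its own table, and the values as deposited were taken to be log2 levels that had been quantile normalised between libraries, which is how the numbers themselves behave; no label states it. The tables hold 15697, 15573, 16155 and 8830 genes, columns without a sample number 0, and depth is unknown.

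Groups follow the labels. limma 3.58.1 (R 4.3.3), two-sided, with a trended prior variance, was run per tissue with the lowest 10% of genes by mean level dropped (14127, 14015, 14539 and 7947 tested; 13517 for the brain mean), with Benjamini-Hochberg adjustment at 0.05. The fit was tested on simulated data. Exact permutation tests enumerated 12870 splits (11440 in blood). Relations used 100000 permutations within treatment (the smallest p they can give is 1e-05; Python 3.11.15, numpy 2.4.6, scipy 1.17.1). Hemoglobin-rich means an Hbb-bs level above 12.

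The members, lists and alternatives were chosen with earlier results of these data known. Named genes are the members, the 3 rows most like each, Hbb-bs and genes from each list. From a list they are the 2 with the smallest p in a tissue, of which a selection is given. Rows of the Dlk1-Dio3 region, the relations with them and with markers, and Bc1 were added after the data were seen. Single-exon genes (GENCODE M21) had a higher median level than spliced genes (5.66 and 4.41 in prefrontal cortex). Among the spliced genes there, level and exon length had a rho of -0.0038. Whether the values are scaled to length is not given, so levels of different genes are not compared. Sequences come from RefSeq (GRCm38.p6) and GENCODE M21. The relations with 1 marker list are not reported here.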

Additional observations from a re-analysis of the deposited data

Results flagged for a closer look

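Of 34 groups of 7 to 9 libraries, one for each RNA, tissue and treatment, 2 held a value whose gap to its nearest neighbour was large against the group's whole range. Chance flags about 1 in 20 groups. Malat1 in control replicate 1 of prefrontal cortex was at 13.654, and Malat1 in UCMS replicate 6 of hippocampus at 13.878. Both libraries are hemoglobin-rich, with Hbb-bs at 14.57 and 14.40, and in both Malat1 had rank 8 with the globin rows counted and rank 5 without them.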

How the results depend on the processing

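None of the 22 UCMS differences of the 5 RNAs passed under any alternative tried (lowest adjusted p = 0.477): 537 kept their sign and 31 turned it, each from a difference between -0.10 and 0.09. In prefrontal cortex Malat1 was 0.0612 with array weights, 0.0119 without globin rows, a setting chosen after seeing the data, and 0.0637 on the linear scale, Meg3 was 0.0136 without the animals named BS and 0.0136 on the linear scale, and Miat was -0.13 with array weights. Without the BS animals Neat1 was 0.000929 in hippocampus and 0.0101 in the brain mean, and Malat1 was 0.0495 in hypothalamus; Rian was 0.0231 in hippocampus with array weights. Without the hemoglobin-rich animals the difference of the UCMS effect turned to -0.0934 for Miat in hippocampus minus prefrontal cortex, to -0.11 for Miat in hypothalamus minus prefrontal cortex and to 0.13 for Neat1 in blood minus hippocampus. The cause was not tested.

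Leaving out 1 library at a time, the difference ran from -0.28 to 0.25 for Malat1, -0.10 to 0.0676 for Meg3 and -0.0818 to 0.13 for Miat in prefrontal cortex, -0.16 to 0.000929 for Neat1 in hippocampus, -0.26 to 0.0721 for Malat1 in hypothalamus and -0.22 to 0.0418 for Neat1 in blood. Without a change of sign it ran from 0.17 to 0.61 for Malat1 in hippocampus, from -0.37 (without UCMS replicate 7) to -0.16 (without UCMS replicate 8) for Neat1 in prefrontal cortex and from -0.40 (without control replicate 2) to -0.11 (without control replicate 3) for Malat1 in blood. In the brain mean it ran from -0.12 to 0.30 for Malat1 and -0.14 to 0.0101 for Neat1. The count of genes past the threshold in blood ran from 0 to 1, and the 1 came without UCMS replicate 2. Relations, left out likewise in a step chosen after seeing the data, ran from 0.58 to 0.74 for Malat1 and Rian, 0.20 to 0.91 for Meg3 and Rian and 0.60 to 0.88 for Meg3 and Miat in prefrontal cortex, 0.24 to 0.87 for Meg3 and Rian in hippocampus, and 0.58 to 0.73 for Malat1 and Rian in hypothalamus. The Malat1 ranges are over all libraries, where the hemoglobin-rich ones form a cluster of their own; in the other 12 hypothalamic libraries that r was -0.08. Meg3 and Miat in prefrontal cortex did not pass without control replicate 6, UCMS replicate 2 or UCMS replicate 7 (highest adjusted p = 0.0732, permutation).

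Malat1 and Rian in prefrontal cortex passed by rho (0.69) and without the hemoglobin-rich libraries (0.79), as did, without those libraries, Malat1 and Neat1 in hippocampus (0.75), Meg3 and Miat in hypothalamus (0.82) and Rian and Miat in hypothalamus (0.82). Meg3 and Miat did not pass without the 2 farthest libraries in prefrontal cortex (0.59) and hippocampus (0.67), nor by rho in hippocampus (0.63).

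Correlations between same-numbered libraries ran from -0.45 to 0.62 and differed by tissue. They ran from -0.13 to 0.55 in prefrontal cortex, -0.37 to 0.51 in hippocampus, -0.45 to 0.30 in hypothalamus and -0.26 to 0.25 in blood. A block on the replicate number gave the Miat difference in prefrontal cortex an SE of 0.08, against 0.20 without it. With the replicate number as a block, 0 genes passed and the lowest member adjusted p was 0.529, for Malat1 in blood (-0.29); genes with an unadjusted p under 0.05 numbered 459 in prefrontal cortex, against 308 without the block. The values hold no counts, so what depth limits could not be measured.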
